A study of Mus musculus with 16 samples.

Results

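The replication-dependent histone genes were examined in a map of chromatin loops of the newborn mouse cochlea. Members were the protein-coding genes of GENCODE vM21 whose symbol begins with Hist1h, Hist2h, Hist3h or Hist4h, and this rule gave 67 of 21755 protein-coding genes on chromosomes 1 to 19 and X. A further 3 of the 70 symbols that matched were not protein-coding and were left out. The members lay at 4 places, which are called clusters here: Hist1 on chromosome 13 with 54 genes, Hist2 on chromosome 3 with 10, Hist3 on chromosome 11 with 2, and Hist4h4 alone on chromosome 6. None of the 67 start sites lay in a loop anchor, against 7.10% of all protein-coding genes. At the level of the 31 bins of 10 kb that held them, the count was too small to set them apart. No loop of the list joined separate blocks of the Hist1 cluster or enclosed any of the 4 clusters. These counts of loops have no share of like regions beside them. Only a loop longer than 2219 kb could have enclosed Hist1.

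The loops came from Micro-C, in which chromatin is crosslinked and digested to nucleosomes, and neighbouring fragments are ligated so that each chimeric read pair records a contact. The tissue was whole cochlea, dissected from P0 C57Bl/6 mice (P0/1 in the text of the study), untreated and of many cell types. All 4 Micro-C libraries were merged before loops were called, so that the list holds no value for a single library, no spread between animals and no read depth. The study's results describe replicates 1 to 3 as biological and the fourth as technical, and its ATAC-seq and CUT&RUN samples were not analysed here. The list gives 6798 loops as pairs of 10 kb bins, called anchor bins here, and these pairs use 11828 different bins. Each loop carries a false discovery rate (FDR, a q-value; all lie under 0.1) and a detection scale, the width of the filter with which the caller found it. A pair of positions that is missing from such a list was not called at this depth, which does not show that the contact is absent.

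Histone proteins package DNA into nucleosomes, with H2A, H2B, H3 and H4 in the core and the linker histone H1 at the DNA between cores. The replication-dependent genes make the bulk of these proteins in S phase, stand in clusters of many near-identical copies, have no introns and give mRNAs that end in a conserved stem-loop in place of a poly(A) tail. In the nucleus, the clusters are known to gather in histone locus bodies, where NPAT drives transcription and the U7 snRNP trims the mRNA ends. Loops between distant sites in mammalian chromatin are often held by cohesin, which stops at pairs of CTCF sites that point towards each other.

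The stem-loop letters show what the members have in common along the sequence. The 16-base histone 3′ stem-loop was searched as a pattern of letters, with no mismatch allowed. Some positions of the pattern were open to more than 1 base, and its arms did not have to pair. In the 200 bases after the stop codon, 65 of 67 members (97.0%) had a match, against 70 of all protein-coding genes (0.322%). The search window at the stop codon was chosen after a window at the annotated gene end had found 42 members (46 genes of all, or 0.211%), since many members are annotated with a longer 3′ end. The 65 matches had 8 different spellings, of which the 3 commonest are shown with the stem in capitals and the loop in lower case.
Spelling of 41 members, none of them H4: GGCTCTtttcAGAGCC
Spelling of 9 members, none of them H4: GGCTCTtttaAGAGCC
Spelling of 8 members, all of them H4: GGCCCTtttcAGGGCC
All 13 H4 genes carried a spelling that no other subtype had. The members without a match were Hist2h2be and Hist1h2an. Among the 5 other genes with a match were H2afx, which encodes the H2A.X variant, and H2bfm, an H2B family gene. The rest were Btbd10, Tcl1b1 and Ppm1b, which are not histone genes. Most coding sequences were nearly alike within a subtype. The median identity between pairs of genes of the commonest coding length was 96.7% for 15 H2A genes, 97.4% for 17 H2B genes, 97.2% for 12 H3 genes and 93.9% for 13 H4 genes. The least alike pairs had 77.7%, 82.8%, 93.6% and 85.4% in this order. The H1 genes all differed in coding length and were not compared. Of the 67 members, 66 (98.5%) had a transcript of 1 exon, against 20.6% of all protein-coding genes, and the median gene length was 539 bp against 17414 bp.

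Promoters are shown for the member nearest to a loop anchor, for the member farthest from one, for the gene that stands alone, and for the Hist2 gene nearest to an anchor. The letters are the 250 bases before the start in RefSeq's table (GRCm38.p6), 5′ to 3′ on the gene's strand. Capitals mark the CCAAT box, bound by the factor NF-Y, on either strand. They also mark the letters TATAAA, bound by the TATA-binding protein, on the gene's strand.
Hist1h4h, chr13:23530794-23531043, plus strand: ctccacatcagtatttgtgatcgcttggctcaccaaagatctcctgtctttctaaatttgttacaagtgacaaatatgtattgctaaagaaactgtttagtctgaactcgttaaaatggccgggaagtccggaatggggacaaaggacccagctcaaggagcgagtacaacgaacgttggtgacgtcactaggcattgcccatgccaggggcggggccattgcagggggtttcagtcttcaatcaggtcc
Hist1h2bj, chr13:22042948-22043197, plus strand: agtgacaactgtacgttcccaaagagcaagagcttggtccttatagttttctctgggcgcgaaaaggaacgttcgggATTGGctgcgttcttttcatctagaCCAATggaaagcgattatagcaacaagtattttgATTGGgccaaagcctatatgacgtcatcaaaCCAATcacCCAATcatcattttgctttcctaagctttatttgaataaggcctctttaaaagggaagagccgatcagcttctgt
Hist4h4, chr6:136804432-136804681, minus strand: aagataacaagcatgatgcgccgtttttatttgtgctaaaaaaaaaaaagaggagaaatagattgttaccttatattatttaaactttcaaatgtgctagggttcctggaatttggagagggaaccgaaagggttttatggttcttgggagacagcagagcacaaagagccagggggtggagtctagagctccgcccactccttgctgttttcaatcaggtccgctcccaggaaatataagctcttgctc
Hist2h2ab, chr3:96219635-96219884, plus strand: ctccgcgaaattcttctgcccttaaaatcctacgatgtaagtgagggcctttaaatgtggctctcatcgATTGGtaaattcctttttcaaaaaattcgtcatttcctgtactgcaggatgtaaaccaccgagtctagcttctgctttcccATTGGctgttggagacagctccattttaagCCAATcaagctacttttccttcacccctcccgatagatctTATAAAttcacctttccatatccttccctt
The table held promoters for 62 of the 67 members, in 63 entries of 300 bases. CCAAT stood on either strand in 54 of the 63 (85.7%), against 37.4% of all 32851 promoters, and TATAAA in 35 (55.6%), against 13.6%. In these counts TATAAA was also taken on either strand, and both covered all 300 bases, 50 of them after the start. CCAAT was in every member promoter of H1, H2A, H2B and H3, and in 3 of 12 promoters of H4. The longest run of letters that the promoters of Hist1h4h and Hist4h4 shared was ttcaatcaggtcc, which was in 3 of all promoters. Since the run was taken from these 2 promoters, they hold it by construction, and they were the only 2 of the 12 H4 promoters with it. A match of letters is a description and not a measured binding site.

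Start sites of members lay outside loop anchors throughout. The nearest of them, Hist1h4h (an H4 gene, ENSMUSG00000060981.7), began 1050 bp beyond the end of an anchor bin. None of the 67 members had its start site in an anchor bin, against 1545 of 21755 protein-coding genes (7.10%), and for members the 95% Wilson interval ran from 0% to 5.42%. No base of any member lay in an anchor bin either, against 24.1% of all protein-coding genes, which are mostly much longer. Neighbouring members share bins, so they are not independent: the 67 start sites fell into 31 bins, with up to 5 in the same bin. Of these 31 bins 0 were anchors, against 7.23% of the 19478 bins with a protein-coding start site. The Wilson interval over bins ran from 0% to 11.0% and included that background, so that at the level of bins the count was too small to set the histone genes apart. Both intervals cover counting error only.

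Distance to the nearest anchor was taken from the start site to the nearest base of an anchor bin. Its median over the 67 members was 95.5 kb (quartiles 45.7 and 592 kb, range 1.05 to 883 kb), and over all protein-coding genes it was 56.6 kb (quartiles 17.7 and 193 kb). This order turned round with loops of FDR under 0.01, where the medians were 95.8 kb for members and 152 kb for all protein-coding genes. Within 50 kb of an anchor lay 20 of 67 members (29.9%), against 47.0% of all protein-coding genes. Beyond 500 kb lay 23 members (34.3%), against 13.1%. These 23 are 2 neighbouring blocks of the Hist1 cluster, so the upper part of the distribution describes a single stretch of chromosome 13. When anchor bins were widened by 10 kb on each side, 3 members (4.48%) came to lie inside, against 17.7% of all protein-coding genes. They were Hist1h4h, Hist1h2af (H2A, 3.91 kb from the anchor) and Hist1h3g (H3, 5.42 kb), all next to the same anchor bin.

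**Figure D1:**
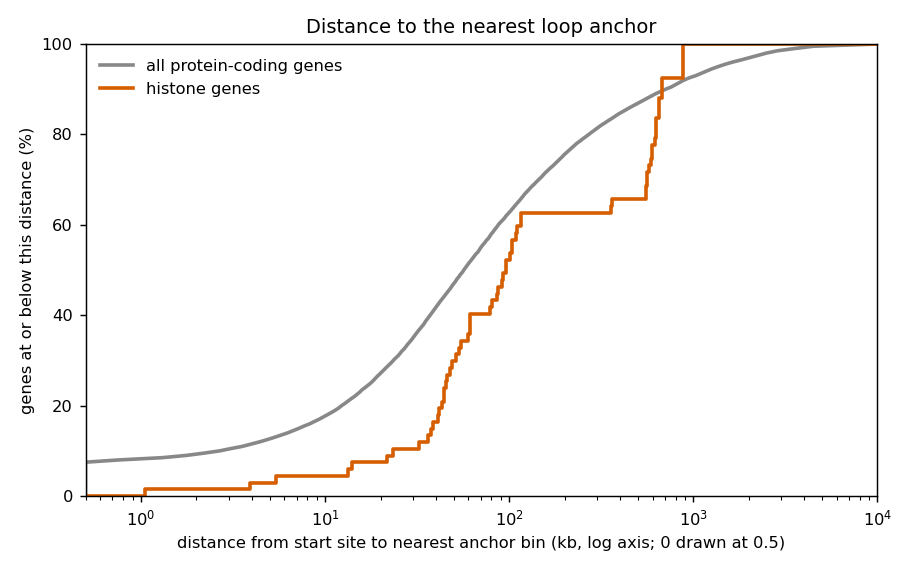
Cumulative share of genes (%) against the distance from start site to nearest anchor bin (kb, log axis) for the 67 histone genes (orange steps) and all 21755 protein-coding genes (grey line). The grey line starts at 7.10% inside anchors while the orange line starts at 0, and the last steep rise of the orange line, beyond 500 kb, is 23 genes of the Hist1 cluster.

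The Hist1 cluster spanned 2219 kb (chr13:21715763-23934851) and fell into 4 blocks where neighbouring start sites lay more than 100 kb apart. Block 1 held 18 genes from Hist1h2bl to Hist1h2br (chr13:21715763-21837530), and they lay 556 to 674 kb from an anchor. The linker histone gene Hist1h1b was in this block. Block 2 held 5 genes from Hist1h2ah to Hist1h2bj (chr13:22035164-22043676) and was the farthest of all, at 876 to 883 kb. Block 3 held 29 genes from Hist1h4h to Hist1h1a (chr13:23531050-23764406) at 1.05 to 116 kb, and 19 of the 20 members within 50 kb of an anchor were in it. The farthest gene of block 3 was Hist1h2ac. Block 4 was the pair Hist1h2ba and Hist1h2aa (chr13:23933773-23934851), an H2B and an H2A gene, 95.8 and 95.5 kb from an anchor. The cluster thus held both the nearest and the farthest of all 67 members.

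Of the 223 bins of the Hist1 span 3 were anchors, or 1.35 per Mb, against 5.33 per Mb on chromosome 13 and 4.49 per Mb over all chromosomes of the list. With 500 kb on each side there were 8 anchor bins, or 2.48 per Mb. Among 809 tiles of the same width, the median tile held 15 anchor bins and 29.4% of tiles held at most 8, so that a low count of this size was common across the genome. The 3 anchors belonged to 2 loops. A 90 kb loop joined chr13:23430001-23440000 to chr13:23520001-23530000, with an FDR of 0.000935, and 21.4% of all loops had a lower one. It ended just before block 3, with both anchors in the gap between blocks 2 and 3. Neither anchor held a protein-coding start site, and the start of the noncoding RNA C230035I16Rik was in the left one, away from block 3. The other loop ran 500 kb from chr13:23800001-23810000, between blocks 3 and 4, to chr13:24300001-24310000 beyond the cluster, with an FDR of 0.00144. Its inner anchor held the start site of Slc17a2, a member of a family of phosphate and organic anion transporters. This loop spanned block 4 but not block 3. All anchor bins of both loops were without a match to the CTCF consensus, whereas 48.4% of all anchor bins and 21.4% of all bins had at least 1.

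The other 2 loops within 500 kb of the cluster lay outside it, each with an anchor in the gene Carmil1, an actin regulator. They ran 260 kb (FDR 0.00220) and 160 kb (FDR 0.00422). The 260 kb loop had CTCF consensus matches on the reverse strand in its right anchor, and the 160 kb loop had them on the forward strand in its left anchor. On the other side, the 500 kb to the left of block 1 held no anchor in the list.

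**Figure D2:**
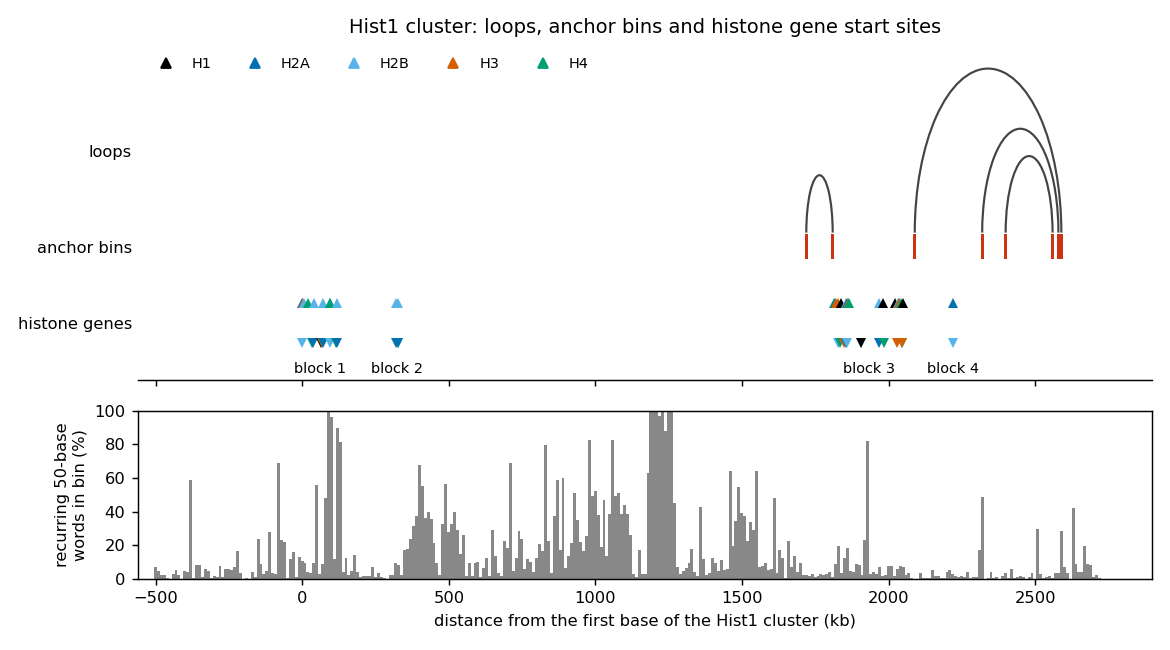
The Hist1 cluster with 500 kb on each side: arcs are the 4 loops (arc height has no unit), red marks the anchor bins, and triangles are start sites of the 54 genes by subtype, pointing up for the plus strand and down for the minus strand. The lower panel gives the share of each 10 kb bin made of 50-base words that recur in the genome (%), and the x axis is distance from the first base of the cluster (kb). All 4 loops lie to the right of block 2, and none is drawn at blocks 1 and 2.

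Blocks 1 and 2 lay together in a stretch without anchors, chr13:21160001-23430000. It was 2270 kb long, the 130th longest of 9877 such stretches between neighbouring anchors, whose median was 120 kb. Besides 23 histone genes it held 36 Vmn1r genes (vomeronasal type 1 receptors), 9 Olfr genes (olfactory receptors) and 18 other protein-coding genes. No loop of the list spanned it. A CTCF consensus match was present in 16.7% of its bins, against 21.4% of all bins. All other stretches without anchors that held members were above 21.4%, from 22.7% around block 4 to 54.5% around Hist4h4. Block 3 filled another stretch, of 270 kb, in which 29 of 31 protein-coding genes were histone genes. In all, 25 of the 67 members (37.3%) lay in stretches of 1 Mb or more, against 25.6% of protein-coding genes. These were the 23 genes of blocks 1 and 2 and the 2 Hist3 genes, so the share of members rests on 2 stretches.

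The Hist2 cluster (chr3:96219865-96270132) held 10 genes in 50.3 kb. Its nearest gene, Hist2h2ab (H2A), lay 59.9 kb from an anchor and its farthest, Hist2h2bb (H2B), 110 kb. There was no anchor inside it. The window with 500 kb on each side held 6 anchor bins, or 5.71 per Mb, against 4.59 per Mb on chromosome 3, and 65.9% of tiles of this width held at most 6. All 4 loops of the window lay on the left side. The loop with the lowest FDR (0.00154) ran 70 kb from chr3:96070001-96080000 to chr3:96140001-96150000, with its right anchor in Otud7b, a deubiquitinase gene. To the right, the next anchor came after a stretch of 770 kb that held 36 protein-coding genes, the 10 histone genes included.

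Hist3h2ba (H2B) and Hist3h2a (H2A) made up the Hist3 cluster (chr11:58948920-58956830), 361 and 355 kb from an anchor. They shared a 1260 kb stretch without anchors, the 265th longest of 9877, with 21 olfactory receptor genes and 33 others. The window with 500 kb on each side held 1 anchor bin, or 0.992 per Mb, against 5.18 per Mb on chromosome 11. Of tiles of this width, 29.4% held at most 1 and 22.8% held none, so that such a low count was common across the genome. The anchor belonged to 1 loop. It ran 160 kb from an anchor in Wnt9a, a Wnt ligand gene, to the start site of Zfp867, a zinc finger gene, with an FDR of 0.000470.

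Hist4h4 (H4, chr6:136801553-136804415) stood in a neighbourhood of many loops. Its start site was 45.6 kb from the nearest anchor, which held the start site of Art4, an ADP-ribosyltransferase gene. The window held 14 anchor bins, or 14.0 per Mb, against 4.92 per Mb on chromosome 6, and 99.7% of tiles of this width held at most 14. Of its 10 loops, 5 lay wholly to the left of the gene and 5 wholly to the right. The loop with the lowest FDR (0.000142) ran 520 kb from chr6:137200001-137210000 to chr6:137720001-137730000. H2afj, a gene of the replacement H2A.J that was picked out after its position was seen, lay close by, 41.8 kb from the same anchor as Hist4h4.

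**Figure D3:**
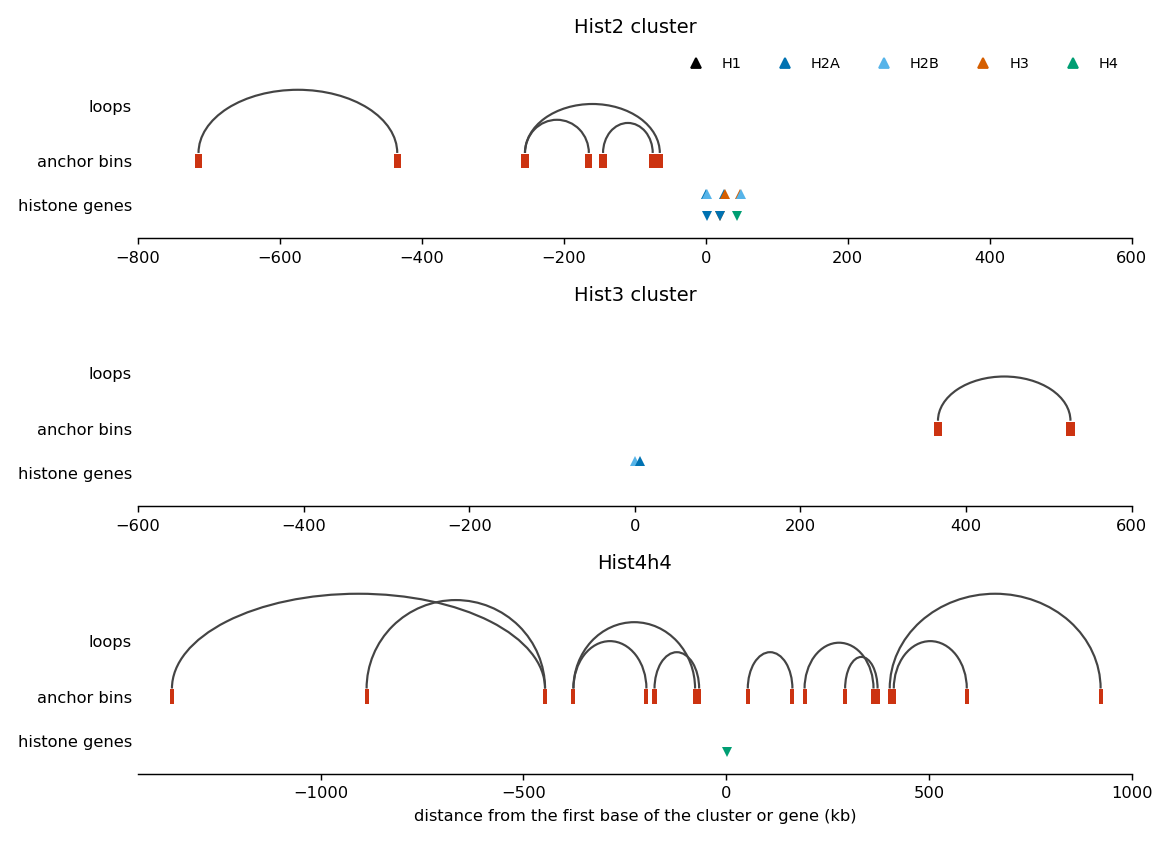
The Hist2 cluster, the Hist3 cluster and Hist4h4, each with its loops within 500 kb (arcs, height without unit), their anchor bins (red) and histone start sites (triangles by subtype and strand), against distance from the first base (kb). The genes have no loop over them in any panel, with 4, 1 and 10 loops beside them.

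Anchors around the histone genes differed in whether they held the letters of a CTCF site. The matches below stand in anchors of loops within 500 kb of a cluster, with the consensus part in capitals and 20 bases on each side, 5′ to 3′ on the strand of the match. The first is from the loop anchor nearest to Hist1 that has a perfect match, the next from the Hist2 loop with the lowest FDR, and the last pair from the Hist4h4 loop with the lowest FDR.
Right anchor of the 260 kb loop, chr13:24297409-24297462, minus strand: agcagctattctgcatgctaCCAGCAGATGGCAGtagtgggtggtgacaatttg
Right anchor of the 70 kb loop, chr3:96148120-96148173, minus strand: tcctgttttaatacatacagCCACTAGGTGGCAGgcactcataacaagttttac
Left anchor of the 520 kb loop, chr6:137206200-137206253, plus strand: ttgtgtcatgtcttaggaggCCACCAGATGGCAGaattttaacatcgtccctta
Right anchor of the 520 kb loop, chr6:137724066-137724119, minus strand: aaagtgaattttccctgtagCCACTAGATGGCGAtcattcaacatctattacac
The first 3 matched without a mismatch and the last with 1. In the 520 kb loop the matches pointed towards each other. The other 2 loops near Hist4h4 with a match in both anchors had their best matches on the same strand, on the reverse strand in the 170 kb loop and on the forward strand in the 80 kb loop. Of the 31 bins with a histone start site, 9 (29.0%) had a match, which was near the 30.0% of all bins with a protein-coding start site.

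Genes of all 5 subtypes stood at near and at far positions. The median distance to an anchor was 76.9 kb for the 6 H1 genes, 106 kb for the 18 H2A genes, 238 kb for the 18 H2B genes, 51.1 kb for the 12 H3 genes and 102 kb for the 13 H4 genes. The ranges overlapped widely, since all subtypes had genes in block 3 and in block 1. Of the 36 H2A and H2B genes, 24 stood as 12 divergent H2A and H2B pairs, with 176 to 306 bp between starts (median 259.5 bp). Each such pair thus had virtually the same distance to an anchor.

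**Figure D4:**
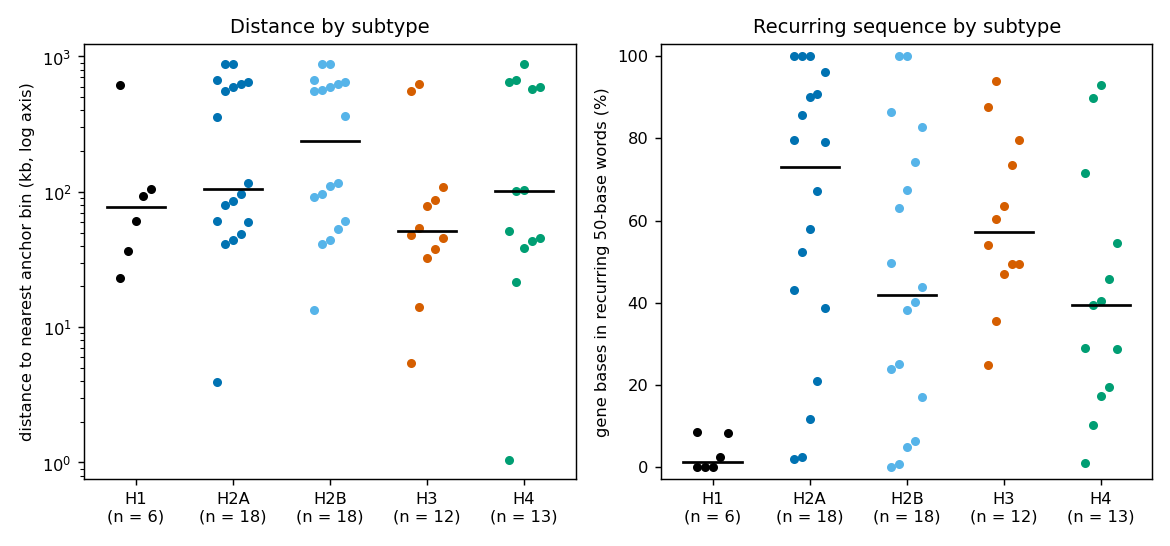
Distance to the nearest anchor bin (kb, log axis, left) and share of the gene in recurring 50-base words (%, right) by subtype, with 1 point per gene and a bar at the median. Distances overlap among the 5 subtypes, while the 6 H1 genes lie between 0% and 8.54% recurring sequence and the other subtypes reach 92.9% or more.

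Reads that lie wholly in repeated sequence cannot be placed uniquely, and the loops were called from uniquely mapped pairs. The share of each gene and bin in 50-base words that occur more than once on chromosomes 1 to 19, X and Y was therefore measured. A read longer than 50 bases can reach beyond such a word into unique sequence, so this is not a share of unmappable sequence. In member genes the median share was 47.0% (range 0% to 100%), against 2.98% over all protein-coding genes, and 30 members exceeded 50%, against 5.27% of all genes. The H2A genes had the highest median, 73.1%, followed by H3 with 57.2%, H2B with 41.9% and H4 with 39.5%, while H1 had 1.19%. Hist1h4h and Hist1h2bj, the nearest and farthest members, had 45.8% and 63.0%.

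Because the genes are short, their bins were less repeated than the genes themselves. The 31 bins with a histone start site had a median of 7.81%, against 2.92% of bins with a protein-coding start site and 2.26% of anchor bins. Across all bins with a start site, the share that were anchors was 11.7% where recurring words made up at most 1% of the bin, 7.89% at 1 to 5%, 4.87% at 5 to 10%, 3.38% at 10 to 20%, 1.87% at 20 to 50%, and 0.294% above that. The histone bins numbered 0, 12, 11, 5, 1 and 2 in these classes. The Hist1 span had a median of 9.43% and its flanks 2.96%. Crowding of start sites moved the same way: bins with 1 start site were anchors in 7.35% of cases, with 2 in 6.60% and with 3 or more in 2.50% (4 of 160), and the histone bins numbered 7, 12 and 12. The part of recurring sequence and of crowding in the absence of histone genes from anchors was not tested.

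**Figure D5:**
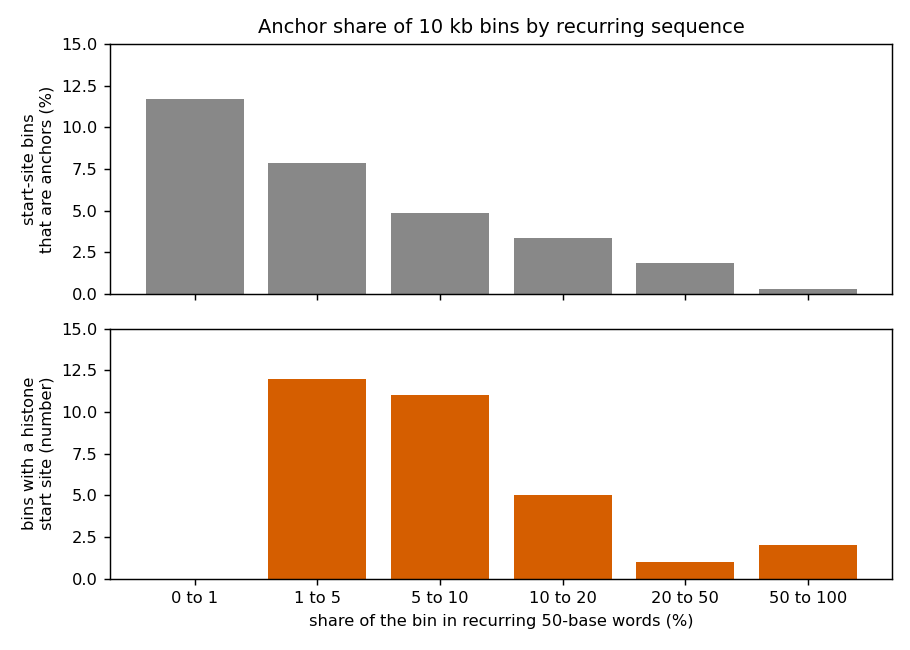
Upper panel: share of 10 kb bins with a protein-coding start site that are loop anchors (%), by the share of the bin in recurring 50-base words (%); lower panel: number of bins with a histone start site in the same classes. The anchor share falls from 11.7% in the lowest class to 0.294% in the highest, and of the 31 histone bins 23 lie between 1% and 10%.

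Other gene families in tandem clusters took different places relative to anchors. The Hox genes, transcription factors of body patterning, had 14 of 39 start sites in anchor bins (35.9%) and a median distance of 4.19 kb. The clustered protocadherins, neuronal cell surface proteins, had 6 of 57 (10.5%) and 19.8 kb. The olfactory receptor genes had 6 of 1135 (0.529%) and 495 kb, and the vomeronasal type 1 receptor genes had 0 of 209 and 1037 kb. With 0 of 67 and 95.5 kb, the histone genes had a median distance between those of the protocadherins and of the olfactory receptors. The families were set side by side with no test, and their members share bins as well.

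Histone genes outside the clusters and the genes that regulate the clusters were looked up in the same list. Replacement histone genes are mostly expressed outside S phase, spliced and polyadenylated, though H2afx among them had a stem-loop match. Of 14 such genes 1 (7.14%) had its start site in an anchor, which was near the 7.10% of all protein-coding genes. It was H2afz, encoding H2A.Z, in a loop of 290 kb with an FDR of 0.00332. Their median distance was 48.8 kb, against 56.6 kb over all protein-coding genes. Of 20 genes for transcription and mRNA 3′ ends of histone genes, 4 had start sites in anchors (20%, against the same 7.10%): Lsm10 and Lsm11, which encode U7 snRNP proteins, Eri1, a nuclease that acts at the histone stem-loop, and Pou2f1, which encodes the octamer factor OCT1. Their loops had FDR values of 0.0357, 0.0606, 0.00132 and 0.0381 in this order. The median distance of the 20 was 38.4 kb, against 56.6 kb, and the farthest was Cpsf3, a subunit of the cleavage complex, at 3185 kb. The other 16 had their start sites outside anchors, among them Npat and Slbp, which encodes the stem-loop binding protein, at 47.0 and 52.6 kb.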

How the data were processed

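The loops are those deposited by the authors as called on all 4 Micro-C libraries merged. Reads had been aligned to mm10 with BWA-MEM, filtered to uniquely mapped chimeric pairs, handled with pairtools and passed to the Mustache loop caller in 10 kb bins; versions are not given in the sources used here. The q-value (FDR) of each loop and the score deposited with it, the detection scale, are as the authors' caller gave them and were used only to describe and filter loops. Depth is not part of the list. Every measurement column was used.

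Genes came from GENCODE vM21 on GRCm38.p6, and all bins ended within its chromosome lengths. Members within 2 Mb of each other formed a cluster. A CTCF match allowed 1 mismatch to a 14-base consensus written from general knowledge. The stem-loop search allowed no mismatch to its pattern, in which some positions were open to more than 1 base. Python 3.11.15 with pandas 2.3.3 and numpy 2.4.6 gave overlaps, words of 50 bases and 95% Wilson intervals, matplotlib 3.10.9 drew the figures, and the steps were tested on simulated data. No statistical test was made, since 1 merged list holds no replicates. The members, gene lists and measures were chosen with earlier results of these data known. Named were members in anchors, the nearest and farthest of each cluster, the first and last of each block, genes at anchors of loops inside a cluster, and list genes in anchors. Genes named beside these were chosen after their values were seen: Hist1h1b, Hist1h2an, Hist2h2be, Hist1h2ac, Hist1h2af, Hist1h3g, C230035I16Rik, Carmil1, Otud7b, Wnt9a, Zfp867, Art4, H2afj, H2afx, H2bfm, Btbd10, Tcl1b1, Ppm1b, Cpsf3, Npat and Slbp. Protein sequences were not used here. Alternatives were stricter FDR limits, the smallest detection scale, wider anchors, other start sites, windows and block gaps.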

Additional observations from a re-analysis of the deposited data

How the results depend on the processing

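No member start site lay in an anchor with loops of FDR under 0.05 or 0.01, with loops of the smallest detection scale, with start sites of any transcript, or with any base of the gene. The share of all protein-coding genes with a start site in an anchor was then 5.74%, 3.45% and 5.46% in the 3 shorter lists. For any base of the gene it was 24.1%, and for start sites of any transcript no such share was taken. With anchors widened by 10 kb the count was 3 (4.48%), against 17.7% of all protein-coding genes. The median distance of members, 95.8 kb with loops of FDR under 0.05 and under 0.01, was above that of all protein-coding genes at 0.05 and below it at 0.01, where all genes had 152 kb. At the smallest detection scale the median distance was 209 kb for members and 83.9 kb for all protein-coding genes, and 0 loops had a single anchor inside a cluster, since the 500 kb loop was found at a larger scale. Windows of 250 kb and 1 Mb held 12 and 39 loops in place of 19, by their width. The stem-loop count was 65 with the window after the stop codon, chosen after seeing the data, in place of 42. No loop joined blocks when they were split at 50 or 200 kb. No paired analysis was possible because the list was called on merged libraries. Depth limits which contacts could be called.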
